A study of Mus musculus with 10 samples.

Results

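The mitochondrial ribosomal proteins were examined in jejunum of mice with and without the yeast enzyme NDI1 in the intestinal epithelium. They were taken as every gene whose symbol is Mrpl or Mrps followed by a number and at most 1 letter, which gave 77 of the 45707 genes in the table. Of these, 48 are Mrpl genes, named for the large subunit, and 29 are Mrps genes, named for the small subunit; 5 pseudogene rows were left out. The 10 libraries each came from 1 male mouse, 5 labelled Vil-Cre and 5 labelled Vil-Cre:NDI1. Both groups carry the Villin-Cre transgene, which is active in intestinal epithelial cells. Vil-Cre:NDI1 mice also carry 1 NDI1 allele with a lox-stop-lox cassette at the Rosa26 locus, so that Cre switches on this yeast NADH dehydrogenase, a single protein that metformin does not block. The animals were littermates on standard chow, aged 8 to 12 weeks, and had no food overnight for 16 to 18 h. Each received water by gavage and no drug, and jejunum was taken 1 h later. Whole flushed jejunum was frozen, so RNA from muscle, immune and stromal cells is included, and fewer cells of a type cannot be told apart from less RNA per cell.

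Mitochondria have their own ribosome, descended from a bacterial one, which translates the few membrane proteins of the respiratory chain encoded in mitochondrial DNA. Its ribosomal RNAs come from the mitochondrial genome, but all of its proteins are encoded in the nucleus, made in the cytosol and imported. Many keep a bacterial counterpart with the same number, while others, with higher numbers, were added in the mitochondrial lineage. Symbols do not always follow the subunit: Mrps18a and Mrps30 sit in the large subunit, and Mrps36 is known as a component of the 2-oxoglutarate dehydrogenase complex. In jejunum, absorptive enterocytes are rich in mitochondria, and complex I, the step that NDI1 can bypass, contains several subunits made on this ribosome.

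Start-site sequences were available from RefSeq (GRCm38.p6) for 68 of the 77 genes, as windows of 300 bases with 250 before and 50 after each start. Mrps35, Mrpl13, Mrpl38, Mrpl19, Mrpl4, Mrpl54, Mrpl15, Mrps34 and Mrps28 had no window. The letters CCGGAAG, bound by ETS factors such as GABP, stood on either strand in 33.8% of the 74 windows of these genes, against 8.86% of all 32851 windows and 16.1% of the 13175 windows of genes expressed here. The letters CGCATGCG, the core of the NRF1 site, stood in 9.46% of them, against 1.87% of all windows and 3.57% of those of expressed genes. The letters AAGATGGCG, a YY1 site, stood in 10.8%, against 1.40% and 2.75%. At least 1 of these 3 stood in 47.3% of the 74 windows, against 11.5% of all windows and 20.9% of windows of expressed genes. By gene, 35 of the 68 had at least 1 of them in a window. None of the 3 motifs contains another. The G+C content was similar in windows of these genes and of expressed genes, with medians of 58.5% and 60.3%. Over all windows the median was lower, at 52.7%. Of 5 further motifs searched, GGGCGG, bound by SP and KLF factors, stood in 52.7% against 60.5% of windows of expressed genes, and the TATA box TATAAA in 6.76% against 7.61%. TGACG, the core of the CREB site, stood in 41.9% against 29.8%, the CAAT box CCAAT in 40.5% against 37.2%, and the E-box CACGTG in 9.46% against 9.50%. These are matches of letters, and binding was not measured.

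Stretches of 140 bases (120 before and 20 after the start) are shown for 5 genes that hold these motifs and for the pair of genes with the lowest unadjusted p between genotypes. They are written along the gene's strand in lower case, and the capitals mark matches to the ETS, NRF1 or YY1 letters on either strand. Mrps18a holds an ETS and a YY1 match, and Mrpl32 holds an NRF1 match at 2 places. Mrpl34 is among the most abundant genes of the set per kilobase. Mrps12 shares its start region with Sars2, another mitochondrial gene. Mrpl36 holds a YY1 match, at a RefSeq start inside the annotated gene rather than at its first base. Mrpl16 and Mrpl44 have no match in the stretch.
Mrps18a, chr17:46110884-46111023, plus strand: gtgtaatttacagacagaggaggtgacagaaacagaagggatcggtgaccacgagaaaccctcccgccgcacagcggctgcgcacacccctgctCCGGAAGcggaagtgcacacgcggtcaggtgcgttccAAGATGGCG
Mrpl32, chr13:14613018-14613157, minus strand: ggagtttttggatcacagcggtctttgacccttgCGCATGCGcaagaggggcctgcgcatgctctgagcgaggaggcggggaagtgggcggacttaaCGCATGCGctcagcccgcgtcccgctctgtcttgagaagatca
Mrpl34, chr8:71464806-71464945, plus strand: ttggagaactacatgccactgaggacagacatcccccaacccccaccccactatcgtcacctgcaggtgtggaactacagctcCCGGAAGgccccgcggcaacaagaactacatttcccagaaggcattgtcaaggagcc
Mrps12, chr7:28741802-28741941, minus strand: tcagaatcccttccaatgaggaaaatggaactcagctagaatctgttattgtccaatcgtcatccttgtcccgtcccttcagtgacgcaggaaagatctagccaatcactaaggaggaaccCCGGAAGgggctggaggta
Mrpl36, chr13:73330889-73331028, plus strand: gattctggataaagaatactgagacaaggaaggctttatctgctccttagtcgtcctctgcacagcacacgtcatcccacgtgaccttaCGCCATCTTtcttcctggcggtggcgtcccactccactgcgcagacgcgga
Mrpl16, chr19:11770295-11770434, plus strand: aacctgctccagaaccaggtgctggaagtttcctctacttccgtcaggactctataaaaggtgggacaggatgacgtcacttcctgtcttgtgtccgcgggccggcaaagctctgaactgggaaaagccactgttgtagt
Mrpl44, chr1:79775898-79776037, plus strand: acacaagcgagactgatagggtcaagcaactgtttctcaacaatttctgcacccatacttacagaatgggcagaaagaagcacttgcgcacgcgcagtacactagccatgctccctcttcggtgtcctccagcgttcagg

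The values are normalized counts, that is, reads on a gene divided by 1 size factor per library. Libraries held 10145705 to 12371530 reads on genes, and size factors differed by at most 1.29-fold. NDI1, the check of the labels, had 0, 0, 1, 0 and 0 reads in the Vil-Cre mice and 1002, 1505, 2659, 1423 and 1287 reads in the Vil-Cre:NDI1 mice (exact two-sided permutation p = 0.00794, the smallest that 252 assignments of mice allow). Enterocyte markers such as Vil1 and Sis were abundant in every library, with the summed count of 10 markers at 365573 to 601580 in Vil-Cre and 550750 to 722367 in Vil-Cre:NDI1 mice. All 10 were higher on average in Vil-Cre:NDI1 mice, and all 5 goblet markers were lower. Crypt markers summed to 3110 to 4624 and 2910 to 5610, goblet markers to 70697 to 90564 and 53646 to 78356, and smooth muscle markers to 11290 to 24229 and 13047 to 23810. None of these markers passed limma's test, and none was at 0 in any mouse. Liver markers summed to 51.6 to 964 in Vil-Cre and 40.2 to 89.2 in Vil-Cre:NDI1 mice, and 0 of 4 had a positive log2 fold change. Plasma and B cell markers summed to 13070 to 31917 and 11605 to 46956, with 0 of 5 positive. Paneth, T cell and adipocyte markers went in both directions. Adipoq, Plin1 and Serpina1a were at 0 in a mouse, and none of these further markers was called.

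All 77 genes were expressed in every mouse and passed the filter on low values (10 or more normalized counts in 5 or more mice), as did 14301 genes in all. Mean normalized counts over the 10 mice ran from 103 for Mrpl22 to 1024 for Mrpl12, with a median of 271. Per kilobase of exon, which allows levels to be compared between genes, the range was 24.8 to 668, or 27.0-fold, with a median of 112. Mrpl genes had a median of 121 per kilobase and Mrps genes one of 70.6. Where genes are grouped below, large- and small-subunit genes are the Mrpl and Mrps genes by symbol. Mrps18a, Mrps30 and Mrps36 are thus counted with the small subunit. Genes of bacterial-type number (up to 36 for Mrpl and 21 for Mrps) had a median of 91.4 per kilobase, and those of higher number one of 127. When length was taken from the longest transcript alone, the medians were 155 for large-subunit and 114 for small-subunit genes, and 147 for bacterial-type and 154 for higher numbers, so that the second pair came close together. The levels of the 2 subunits overlapped over almost their whole range, and no test was applied to them. Over single genes, ranks on the longest transcript and on the union of exons correlated with a Spearman rho of 0.960 over the 77 genes, which share the same libraries.

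**Figure D1:**
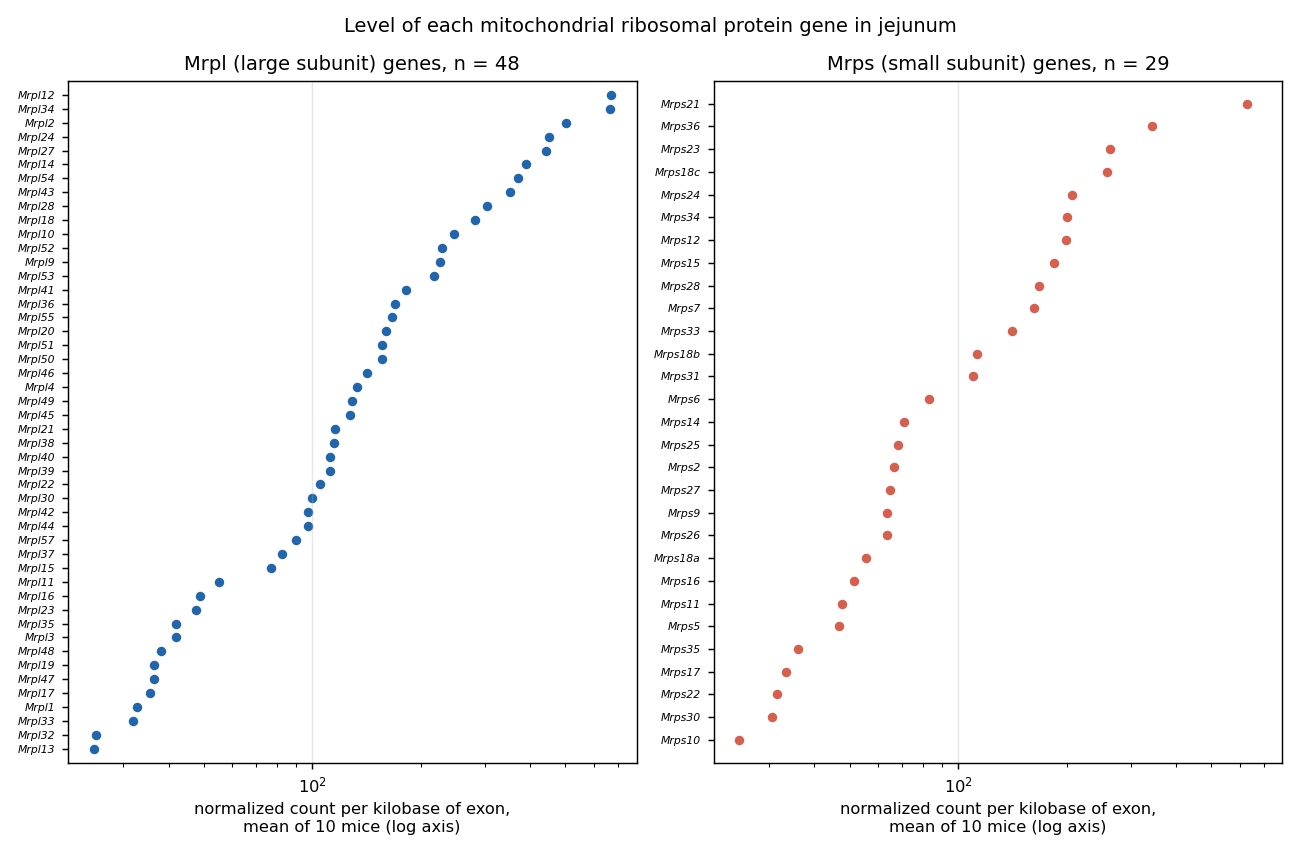
Mean normalized count per kilobase of exon (union of all exons) over 10 mice (x axis, log scale) for each of 48 Mrpl genes (left) and 29 Mrps genes (right), ranked within each panel, with 1 point per gene. Mrpl12, Mrpl34 and Mrps21 stand highest at 629 to 668, and Mrps10, Mrpl13 and Mrpl32 lowest at 24.8 to 25.1.

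The highest level per kilobase of all exons belonged to Mrpl12 (chr11:120484613-120489065, plus strand), the flexible stalk protein that recruits translation factors and the only protein present in several copies on the ribosome. Its normalized counts in replicates 1 to 5 were 1007, 914, 1138, 994 and 941 in Vil-Cre and 1147, 1228, 1066, 896 and 905 in Vil-Cre:NDI1 mice. Mrpl34 (chr8:71464959-71465747, plus strand), a small basic protein of the large subunit, stood at 665 per kilobase, with counts of 353, 364, 467, 419.6 and 359 in Vil-Cre and 444, 466, 375, 356 and 429.6 in Vil-Cre:NDI1 mice. Mrps21 (chr3:95862634-95871519, minus strand), of the small subunit, stood at 629 per kilobase, with counts of 392, 424, 383, 502 and 489 in Vil-Cre and 430.3, 501, 418, 560.2 and 553 in Vil-Cre:NDI1 mice. On the longest transcript alone the order was different, with Mrps21 at 953, Mrpl12 at 778, Mrpl24 at 762 and Mrpl34 at 665 per kilobase. In each of these 3 genes the groups overlapped, and the log2 fold changes (Vil-Cre:NDI1 minus Vil-Cre, on log2(normalized count + 1)) were 0.06, 0.08 and 0.17, with 95% intervals of -0.17 to 0.29, -0.17 to 0.32 and -0.09 to 0.43.

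The lowest levels per kilobase were those of Mrps10, Mrpl13 and Mrpl32. Mrpl32 (chr13:14608184-14613165, minus strand), whose maturation by the m-AAA protease is a step of ribosome assembly, had counts of 123, 129, 102, 131 and 142 in Vil-Cre and 133, 136, 109, 138 and 108 in Vil-Cre:NDI1 mice. The log2 fold change came to -0.01 (interval -0.30 to 0.29). Mrpl13 (chr15:55534094-55557748, minus strand) had counts of 205, 193, 156, 168 and 256 in Vil-Cre and 204, 219, 191, 202 and 185 in Vil-Cre:NDI1 mice, and Vil-Cre 5 was the highest of its mice. The log2 fold change was 0.05 (interval -0.25 to 0.35). The annotated exons of Mrps10, Mrpl13 and Mrpl32 sum to 8079, 7936 and 4982 bases, against a median of 2255 over the 77 genes. On the longest transcript alone Mrps10 stood at 49.0, Mrpl13 at 32.9 and Mrpl32 at 41.6 per kilobase. Mrpl13 was then the lowest of the 77 genes, while Mrps10 ranked 68 and Mrpl32 ranked 72.

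Between genotypes, limma called 0 of the 77 genes at an adjusted p under 0.05. Over all 14301 genes tested 1 was called, NDI1 itself, or 0.00699%. DESeq2 and edgeR on the whole reads of all 10 libraries also called 0 of the 77, against 0.183% and 0.00699% of all genes. At an unadjusted p under 0.05, limma found 0 of the 77 higher in Vil-Cre:NDI1 mice, against 2.13% of all genes, and 2 lower (2.6% of the 77), against 2.11% of all genes. DESeq2 found 0 higher and 3 lower (3.9% of the 77) at that level, against 2.23% and 2.58% of the 26142 genes to which it gave a p. edgeR found 0 higher and 2 lower, against 1.99% and 2.67% of all genes. The counts for these genes are thus near the background in both directions. No gene of the set had groups that did not overlap, either higher in every Vil-Cre:NDI1 mouse (0.406% of all genes) or lower in every one (0.294% of all genes). The count of 2 rests on single mice, since it was 0 without Vil-Cre 1 or without Vil-Cre 5, 1 without Vil-Cre:NDI1 2 or 3, and 3 without Vil-Cre 2, 3 or 4. The direction changed with it, to 2 higher and 0 lower without Vil-Cre:NDI1 5 and to 2 higher and 1 lower without Vil-Cre 4. The shares of all genes with 1 mouse left out are not given here.

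The data also bound how large a change could have been. The median log2 fold change over the 77 genes was 0.03, against 0.01 over all genes tested, with a range of -0.36 to 0.51. In Vil-Cre:NDI1 mice 49 were higher and 28 lower. The higher ones made up 63.6%, against 51.2% of all genes tested and 52.4% of genes in the same range of mean level. When the libraries were rescaled to equal totals, the median was -0.031 and 29 of the 77 were higher, while the median of all genes tested moved to -0.06. For 68 of the 77 genes (88.3%) the 95% interval lay within a 1.5-fold change in either direction, against 53.5% of all genes tested and 74.6% of the 6929 genes with a mean level in the same range. For 75 (97.4%) it lay within a 2-fold change, against 79.6% of all genes tested and 93.6% of genes in the same range of level. Their spread between mice was also measured. The median within-genotype SD was 0.19 on the log2 scale, against 0.29 over all genes tested and 0.23 over genes of the same range of level. The 9 genes whose interval reached past 1.5-fold were Mrpl1, Mrpl2, Mrpl16, Mrpl19, Mrpl38, Mrpl44, Mrpl48, Mrps10 and Mrps18c.

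**Figure D2:**
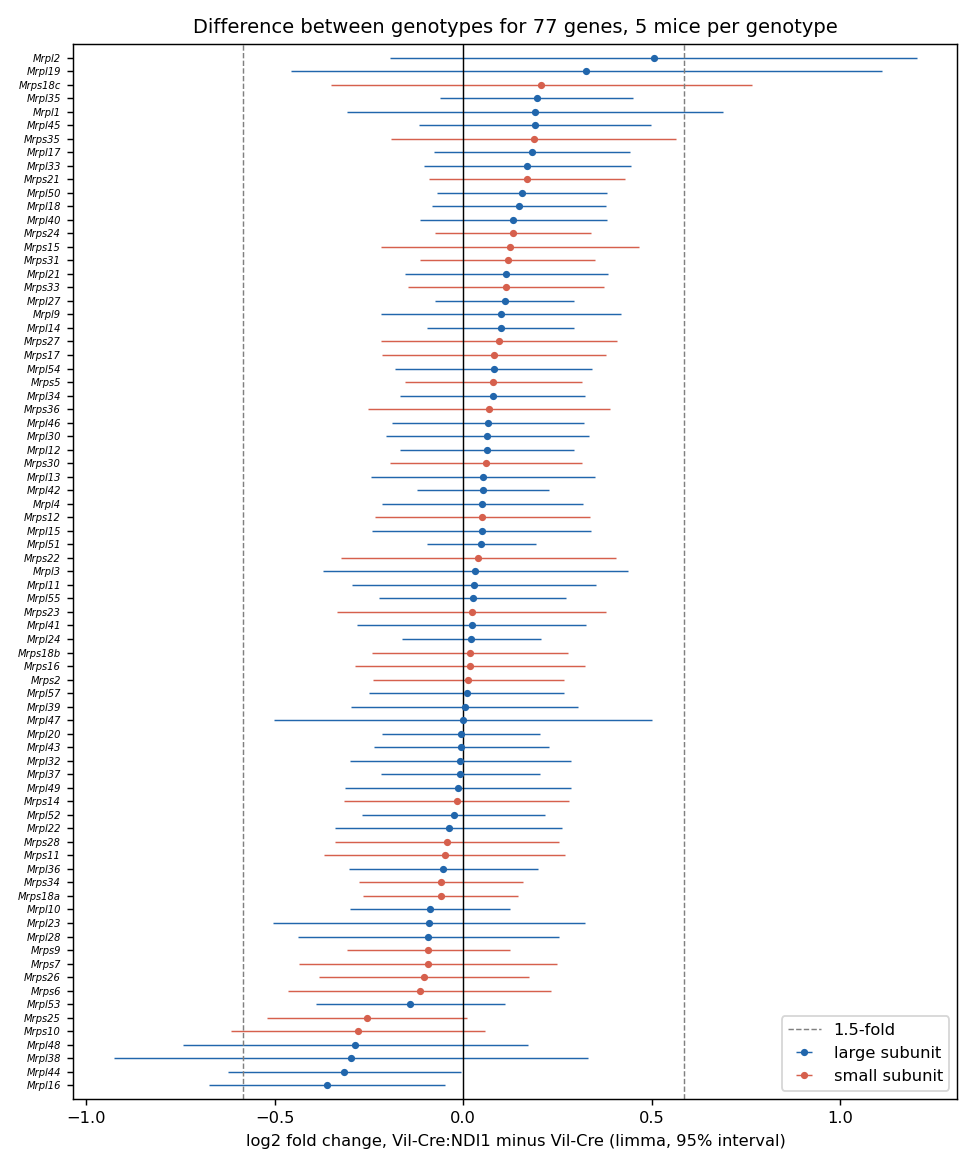
log2 fold change between genotypes (Vil-Cre:NDI1 minus Vil-Cre, x axis) with its 95% limma interval for each of the 77 genes (y axis, ranked). Mrpl genes (large subunit by symbol) are in blue and Mrps genes (small subunit by symbol) in red. The dashed lines mark a 1.5-fold change, and the intervals of 68 genes lie between them.

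The subunits, taken by symbol, were close to each other. Mrpl genes had a median log2 fold change of 0.04, with 31 of 48 higher, and Mrps genes one of 0.02, with 18 of 29 higher. Genes of bacterial-type number had a median of 0.05 (29 of 44 higher) and those of higher number one of 0.02 (20 of 33 higher). Over all genes tested, 51.2% were higher. The 25 genes with an ETS match near their start had a median of 0.04 and the 43 without one a median of 0.02.

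Summed over the 77 genes, the normalized count was 23150 ± 508 in the Vil-Cre group and 23719 ± 863 in the Vil-Cre:NDI1 group (SD, n = 5 each). The sums of the 5 Vil-Cre mice were 22728, 22794, 23943, 23365 and 22918, and those of the Vil-Cre:NDI1 mice 24258, 24286, 24475, 22966 and 22610. Vil-Cre:NDI1 1 to 3 were above every Vil-Cre mouse, while Vil-Cre:NDI1 5 was the lowest of all 10. As a share of all normalized counts, the genes took 0.187% to 0.225%, and the order of the mice changed. Vil-Cre:NDI1 5 was lowest, at 0.187%, and Vil-Cre 5 was highest, at 0.225%. Those mice also stood at the ends of the enterocyte marker sums, at 722367 and 365573. Vil-Cre:NDI1 5 also had the smallest size factor, 0.852. The part of these differences in the shares was not tested. The ratio of summed Mrpl to summed Mrps counts was 2.02 ± 0.101 in Vil-Cre and 2.05 ± 0.0790 in Vil-Cre:NDI1 mice (SD, n = 5 each) and ran from 1.92 to 2.19.

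**Figure D3:**
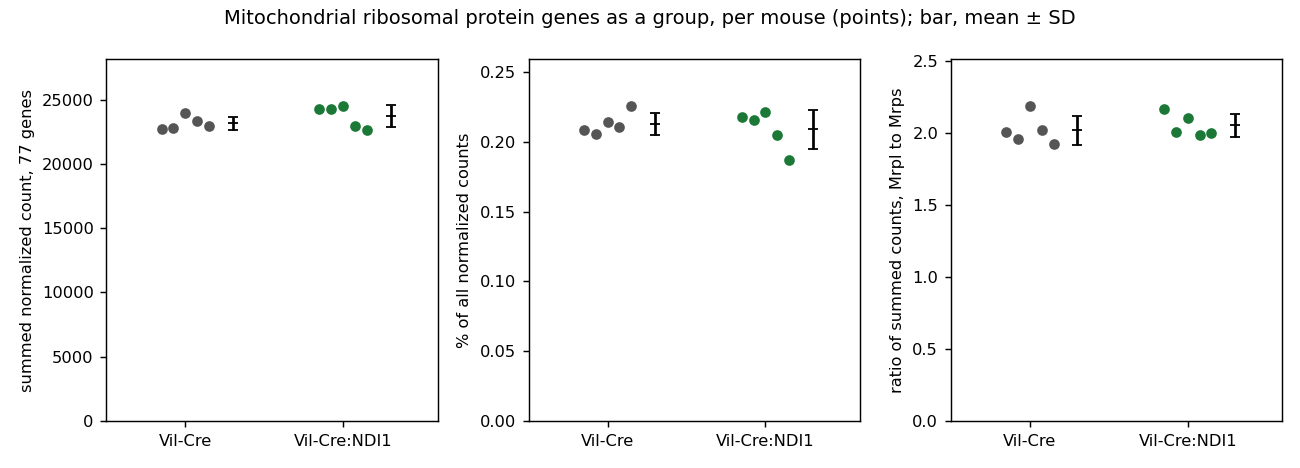
Summed normalized count of the 77 genes, their share of all normalized counts (in percent) and the ratio of summed Mrpl to summed Mrps counts, with 1 point per mouse in replicate order and the mean ± SD of 5 mice beside it. The genotypes overlap in each panel, with ratios between 1.92 and 2.19.

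The gene with the lowest unadjusted p was Mrpl16 (chr19:11770391-11774960, plus strand), a protein of the large subunit with a bacterial counterpart. Its normalized counts were 196, 152, 159, 169 and 191 in Vil-Cre and 155, 157, 113, 145 and 109 in Vil-Cre:NDI1 mice. Counts in Vil-Cre:NDI1 1 and 2 lay inside the Vil-Cre range, and the other 3 lay below it. Means were 174 ± 19.5 and 136 ± 22.9 (SD, n = 5 each), a log2 fold change of -0.36 ± 0.14 (SE) with an interval of -0.67 to -0.05 (limma unadjusted p = 0.0270, adjusted p = 0.998, exact two-sided permutation p = 0.0317). Mrpl44 (chr1:79776018-79781445, plus strand), a large-subunit protein related to RNase III whose human variants cause cardiomyopathy, had counts of 177, 149.9, 214, 179 and 166 in Vil-Cre and 157, 129, 173, 137 and 116 in Vil-Cre:NDI1 mice. Here 3 Vil-Cre:NDI1 mice lay below every Vil-Cre mouse. The means were 177 ± 23.7 and 143 ± 22.6 (SD, n = 5 each), with a log2 fold change of -0.32 ± 0.14 (SE) and an interval of -0.62 to -0.01 (limma unadjusted p = 0.0456, adjusted p = 0.998, exact two-sided permutation p = 0.0556). Exons of Mrpl44 share 126 bases with Wdfy1, on the other strand, whose own log2 fold change was 0.17.

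Small-subunit genes came next on the lower side. Mrps25 (chr6:92169525-92184033, minus strand) had counts of 461, 583, 426, 449 and 517 in Vil-Cre and 333, 421, 412, 494 and 383 in Vil-Cre:NDI1 mice. All but Vil-Cre:NDI1 4 lay below the Vil-Cre mice. Its log2 fold change was -0.26 (interval -0.52 to 0.01, limma unadjusted p = 0.0586). However, 4590 of its exon bases overlap Nr2c2 on the opposite strand, whose own log2 fold change was -0.19. Whether the counting used strand is not given in the sources used here, and the part of Nr2c2 reads in the Mrps25 counts was not tested. Mrps10 (chr17:47368887-47381417, plus strand) had counts of 234, 190.4, 184, 195 and 300.1 in Vil-Cre and 189, 210.5, 186, 164 and 150.2 in Vil-Cre:NDI1 mice. Its groups overlapped widely, with Vil-Cre 5 highest, and its log2 fold change was -0.28 (interval -0.62 to 0.06, limma unadjusted p = 0.0962).

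On the higher side the lowest p belonged to Mrpl35, then Mrpl2, Mrpl17 and Mrpl50, all of the large subunit. Mrpl35 (chr6:71812997-71826969, minus strand) had counts of 179, 138, 185, 144 and 170.0 in Vil-Cre and 203, 178, 189, 189 and 171 in Vil-Cre:NDI1 mice. With 3 Vil-Cre:NDI1 mice above every Vil-Cre mouse, its log2 fold change was 0.19 (interval -0.06 to 0.45, limma unadjusted p = 0.123). Mrpl17 (chr7:105803206-105811099, minus strand) had counts of 228, 237, 258, 321 and 228 in Vil-Cre and 281, 323, 288, 248 and 298 in Vil-Cre:NDI1 mice. Its groups overlapped, with a log2 fold change of 0.18 (interval -0.08 to 0.44). Mrpl50 (chr4:49512596-49521093, minus strand), a protein with no bacterial counterpart, had counts of 295, 333, 268, 376 and 286 in Vil-Cre and 337, 353, 336, 365 and 333 in Vil-Cre:NDI1 mice. Each Vil-Cre:NDI1 count lay inside the Vil-Cre range, with a log2 fold change of 0.16 (interval -0.07 to 0.38).

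Mrpl2 (chr17:46646229-46650139, plus strand), a core protein near the peptidyl transferase centre, had the largest positive log2 fold change and one of the widest spreads. Its counts were 411, 387, 1033, 319.5 and 372 in Vil-Cre and 789, 808, 853, 545 and 381 in Vil-Cre:NDI1 mice. Vil-Cre 3 was the highest of all 10 mice, while the other Vil-Cre mice lay at 320 to 411 and overlapped only with Vil-Cre:NDI1 5. The log2 fold change was 0.51 ± 0.32 (SE), with an interval of -0.19 to 1.20 (limma unadjusted p = 0.140, adjusted p = 0.998, exact two-sided permutation p = 0.381). Without Vil-Cre 3, it was 0.80 (limma adjusted p = 0.936). DESeq2 on 8 libraries, which leaves out Vil-Cre 3 and Vil-Cre 4, gave 0.79 with an adjusted p of 0.0437, and this was the sole call among the 77 genes in any setting tried. That fit called 276 genes in all, or 1.77% of those with an adjusted p, and 1 of the 77 is 1.3%. On the same 8 libraries edgeR called 0 of the 77, against 0.00718% of all genes. In the other settings its adjusted p ran from 0.461 to 1.00. Klc4, a kinesin light chain gene whose start lies 207 bp away in the opposite direction, had a log2 fold change of 0.05 and differed by 1.36-fold between its lowest and highest mouse, against 3.23-fold for Mrpl2.

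**Figure D4:**
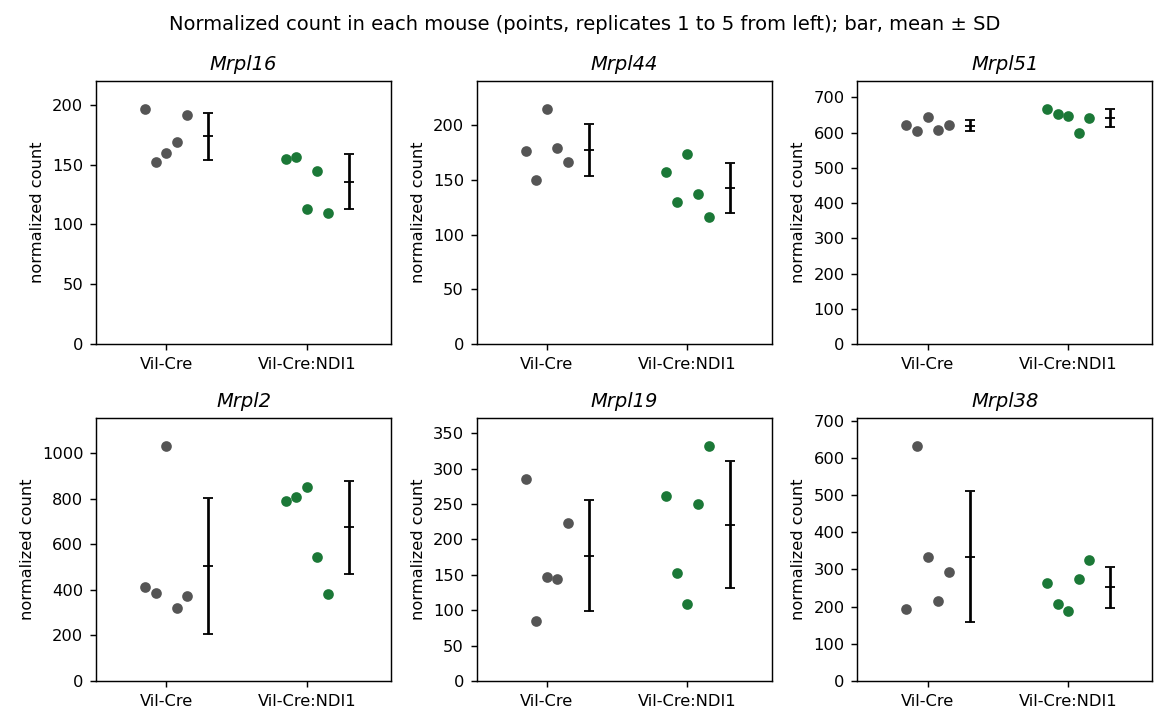
Normalized counts (y axis, from 0) of 6 genes in each mouse, as points in replicate order from left, with the mean ± SD of 5 mice at the right of each group. Mrpl51 stays between 598 and 667, whereas Mrpl2, Mrpl19 and Mrpl38 differ by over 3-fold between mice of 1 or both genotypes.

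Other genes, picked after their values were seen, varied widely between mice of the same genotype. Log2 fold changes were 0.33 for Mrpl19 (interval -0.46 to 1.11) and -0.30 for Mrpl38 (interval -0.93 to 0.33). For Mrpl47 the log2 fold change was -0.0006 (interval -0.50 to 0.50). Intervals this wide cannot tell whether the genotypes differ in these genes. Mrpl19 (chr6:81957851-81965958, minus strand) had counts of 286, 85.4, 147, 144 and 223 in Vil-Cre and 261, 153, 108, 249.7 and 332 in Vil-Cre:NDI1 mice, a 3.89-fold range with both genotypes spread over most of it. Its exons share 1962 bases with Gcfc2 on the other strand, whose mean count was 46.2. Mrpl38 (chr11:116131817-116138868, minus strand) had counts of 194, 633, 335, 214 and 294 in Vil-Cre and 263, 207, 189, 275 and 326 in Vil-Cre:NDI1 mice, and 1 mouse, Vil-Cre 2, stood far above the rest. Mrpl47 (chr3:32725397-32737605, minus strand) had counts of 152, 146, 175, 171 and 143 in Vil-Cre and 178, 186, 208, 171 and 79.8 in Vil-Cre:NDI1 mice, with Vil-Cre:NDI1 5 alone below every other mouse. At the other end, Mrpl51 (chr6:125191801-125196269, plus strand) had counts of 621, 605, 644, 609 and 622 in Vil-Cre and 667, 654, 647, 598 and 641 in Vil-Cre:NDI1 mice, a 1.11-fold range over all 10 mice. Mrpl42, of the large subunit, and Mrps18a followed, each with a range of 1.21-fold.

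**Figure D5:**
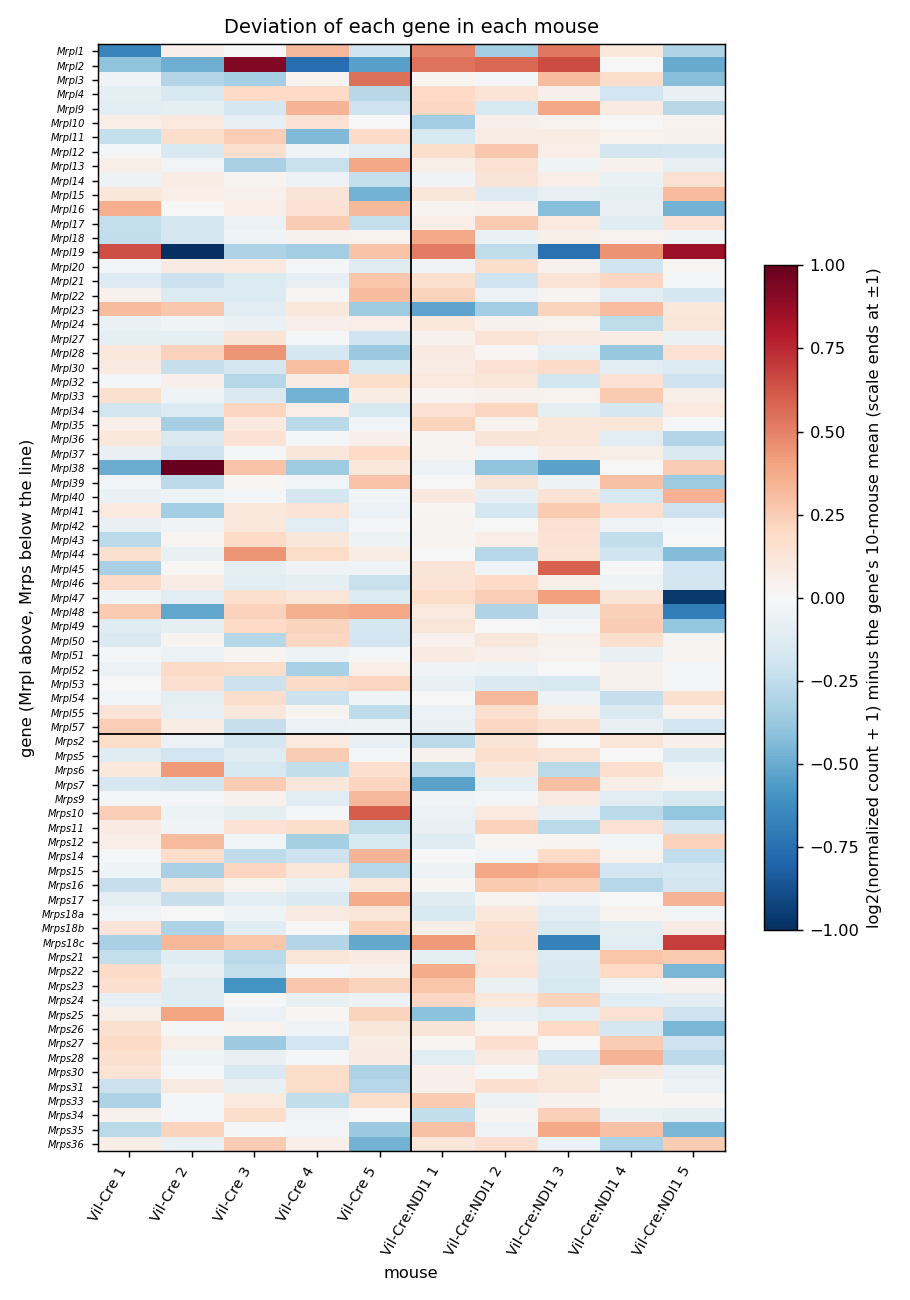
Heat map of log2(normalized count + 1) minus the gene's mean over 10 mice, for the 77 genes (rows) in each mouse (columns, Vil-Cre left of the line), in red above and blue below the mean, with the colour scale ending at ±1. Most cells are pale. Strong colours fall on 1 mouse each for Mrpl38 (Vil-Cre 2) and Mrpl47 (Vil-Cre:NDI1 5), and on several mice for Mrpl2, Mrpl19 and Mrps18c.

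Of the stalk and its base, Mrpl10, which anchors the stalk, had counts of 438, 448, 396, 463 and 419.6 in Vil-Cre and 329, 434, 429, 420.1 and 429.6 in Vil-Cre:NDI1 mice. Its lowest mouse, Vil-Cre:NDI1 1, stood apart, and the log2 fold change was -0.09 (interval -0.30 to 0.12). Mrpl11, at the base of the stalk, had counts of 149.5, 199, 209, 129 and 202 in Vil-Cre and 158, 186, 186, 181 and 182 in Vil-Cre:NDI1 mice. The same mouse was the lowest of its group here, and the log2 fold change was 0.03 (interval -0.30 to 0.35). Mrpl12, given above, did not share that low value, with Vil-Cre:NDI1 1 second highest of its group.

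Mrpl45, which contacts the inner membrane at the exit of the tunnel, had counts of 259.8, 327, 304, 317 and 317 in Vil-Cre and 356, 314, 488, 324 and 284 in Vil-Cre:NDI1 mice. Vil-Cre:NDI1 3 was the highest, and the log2 fold change was 0.19 (interval -0.12 to 0.50). Mrpl3, another large-subunit protein tied to human cardiomyopathy, had counts of 266, 222, 216, 280.1 and 400.1 in Vil-Cre and 278, 269.7, 341, 308 and 203 in Vil-Cre:NDI1 mice. It showed a wide overlap, with Vil-Cre 5 highest, and a log2 fold change of 0.03 (interval -0.37 to 0.44).

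In the small subunit, Mrps12, of the decoding centre, had counts of 215, 255, 201, 163 and 185 in Vil-Cre and 188, 208, 209, 201 and 241 in Vil-Cre:NDI1 mice. The genotypes overlapped fully, with a log2 fold change of 0.05 (interval -0.24 to 0.34). Mrps5, a protein also set in the decoding region, had counts of 281, 267, 281, 365 and 301 in Vil-Cre and 315, 342, 336, 306 and 277 in Vil-Cre:NDI1 mice. The log2 fold change came to 0.08 (interval -0.15 to 0.31), with Vil-Cre 4 the highest mouse. Mrps22, whose human variants cause severe respiratory chain deficiency, had counts of 142, 118, 105, 123 and 128 in Vil-Cre and 162, 137, 112, 143 and 90.4 in Vil-Cre:NDI1 mice. Vil-Cre:NDI1 1 was highest and Vil-Cre:NDI1 5 lowest, with a log2 fold change of 0.04 (interval -0.32 to 0.40). Mrps27, a pentatricopeptide repeat protein, had counts of 153, 140.1, 104, 117 and 142 in Vil-Cre and 136, 151, 135, 161 and 116 in Vil-Cre:NDI1 mice. The groups overlapped, with a log2 fold change of 0.09 (interval -0.22 to 0.41).

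The 3 Mrps18 paralogs, which descend from 1 bacterial protein, differed in how steady they were. Mrps18a had counts of 201, 206, 199, 218 and 223 in Vil-Cre and 184, 220.5, 189.8, 211 and 201 in Vil-Cre:NDI1 mice, all within 1.21-fold. Mrps18b had counts of 257, 189, 218, 236 and 275 in Vil-Cre and 244, 261, 212, 220.3 and 247 in Vil-Cre:NDI1 mice. Mrps18c had counts of 213, 335, 324, 217 and 186 in Vil-Cre and 359, 301, 167, 248 and 432 in Vil-Cre:NDI1 mice, a 2.59-fold range. Their within-genotype SDs on the log2 scale were 0.09, 0.17 and 0.46, and their log2 fold changes -0.06, 0.02 and 0.21, with intervals that all spanned 0. Mrps18c shares 250 exon bases with Gm43511 on the same strand.

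Mrps36 had counts of 451, 413, 514, 447 and 309.8 in Vil-Cre and 467, 486, 414, 349 and 514 in Vil-Cre:NDI1 mice. Vil-Cre 5 was lowest, and the log2 fold change was 0.07 (interval -0.25 to 0.39). As 3 Mrps36 pseudogene rows are counted apart in the table, and Mrpl23 and Mrpl48 also have 1 pseudogene row each, reads may be split between these copies.

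Other genes of mitochondrial translation were read beside these. The 5 subunits with other names, Dap3, Ptcd3, Chchd1, Aurkaip1 and Gadd45gip1, had log2 fold changes of 0.17, -0.03, 0.03, 0.01 and -0.12, none at an unadjusted p under 0.05 by limma. Dap3 is a GTP-binding protein of the small subunit. Among 23 assembly factors 0 were called, 2 were higher (8.7%, against 2.13% of all genes) and 0 lower at an unadjusted p under 0.05, and the median was 0.07. The smallest p belonged to Mettl15, a methyltransferase of the small ribosomal RNA, at a log2 fold change of 0.81 (limma adjusted p = 0.998, exact two-sided permutation p = 0.0159) and mean counts of 16.4 in Vil-Cre and 28.5 in Vil-Cre:NDI1 mice. A list of 14 genes held translation factors and also Lrpprc, Slirp and Oxa1l. None of the 14 passed either threshold of limma. The lowest limma p was that of Gfm1, the elongation factor G, at a log2 fold change of 0.18 (limma unadjusted p = 0.0714, exact two-sided permutation p = 0.0317). A list of 21 genes held the mitochondrial aminoacyl-tRNA synthetases and also Qrsl1, Gatb, Gatc and Mtfmt, which are not synthetases. Of these 21, 0 were called and 2 were higher at an unadjusted p under 0.05 (9.52%, against 2.13% of all genes), with a median of 0.09. Rars2, the arginine enzyme, had the smallest p, at a log2 fold change of 0.52 (limma adjusted p = 0.998, exact two-sided permutation p = 0.0159).

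The transcripts that the mitochondrial ribosome translates were tested too. The 13 messenger RNAs of mitochondrial DNA had a median log2 fold change of 0.10 and a range of 0.08 to 0.14, all positive and none at an unadjusted p under 0.05. They lie on 1 genome and are cut from shared transcripts, so they are not independent of each other. The 2 mitochondrial ribosomal RNAs had a median of 0.08. For the cytosolic ribosome, 85 of 91 protein genes were tested, 0 were called, 26 were higher in Vil-Cre:NDI1 mice, and the median was -0.01. Over all genes tested, 51.2% were higher.

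Many of the genes lie head to head with another gene, so that both start from 1 region. A protein-coding gene on the opposite strand started within 1000 bp upstream, or overlapped the start by at most 200 bp, in 23 of the 77 genes (29.9%), against 1717 of 21519 protein-coding genes in the table (8.0%). The 8.0% covers protein-coding genes whether or not they are expressed here, and the share among expressed genes alone was not computed. Of the 23 pairs, 22 had starts within 300 bp. Some partners are mitochondrial themselves. Mrps12 lies 172 bp from Sars2, the mitochondrial seryl-tRNA synthetase. Mrps27 lies 81 bp from Ptcd2, another pentatricopeptide repeat gene, and the annotated gene start of Mrpl36 overlaps that of Ndufs6, a complex I subunit. Others serve the rest of the cell, as Psma2, a proteasome subunit 75 bp from Mrpl32, and Fau, which encodes a cytosolic ribosomal protein 59 bp from Mrpl49. Of the 22 partners tested, limma called 0 and found 0 at an unadjusted p under 0.05. Of all genes tested, 2.13% were higher and 2.11% lower at that level, so a count of 0 among 22 is near the background. The 23 genes themselves had a median log2 fold change of 0.05 and the other 54 one of 0.03. Partners could stand at another level per kilobase, with Psma2 at 201 against 25.1 for Mrpl32 and Sars2 at 22.2 against 199 for Mrps12, and only 6 of 23 exceeded the ribosomal protein gene.

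Exons of 32 of the 77 genes overlap another annotated gene, and 23 of these overlap a protein-coding one, so their counts may hold reads of a neighbour or lose some to it. Mrpl46 and Mrps11 overlap each other by 173 bases. Without these 32, the median log2 fold change of the other 45 was 0.04, and 1 of them, Mrpl16, had an unadjusted p under 0.05. Of all genes tested, 2.13% were higher and 2.11% lower at that level, so a count of 1 is near the background.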

How the data were processed

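RNA of 10 jejunum libraries (5 mice per genotype) was analysed at the level of genes. The authors trimmed the reads, mapped them (STAR) to a GRCm38 genome that also held NDI1, and assigned them to genes with Salmon, through nf-core/rnaseq, per the study's methods. The annotation release and strand setting are not given in the sources used here. The deposited signal values are gene counts that the authors divided by 1 size factor per library. Whole reads were recovered by dividing by the smallest step, and 100% of values came out whole within 0.1, but in Vil-Cre 3 and Vil-Cre 4 the step could not be told from rounding.

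From the deposited values, genes reaching 10 in 5 or more mice were tested with limma 3.58.1 (R 4.3.3) with a variance trend on log2(value + 1), which understates changes of low genes, with Benjamini-Hochberg adjustment over 14301 genes and a threshold of 0.05. On recovered reads, DESeq2 1.42.0 called 31 genes over 10 libraries and 276 over 8, and edgeR 4.0.16 called 1 in each. Exon lengths and overlaps came from GENCODE's GRCm38 annotation, which matched all 77 genes and 45143 gene identifiers of the table. Same-numbered mice did not deviate together, and mice were treated as unpaired.

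Genes with values per mouse were the 4 with the lowest p in each direction, the 3 highest and 3 lowest per kilobase, and a list of known roles; Mrpl19, Mrpl38, Mrpl47 and Mrpl51 were added after their values were seen. The members and lists were chosen with earlier results of these data known. Mrpl58, on the list of roles, is not a symbol in the table. Assembly factors Rcc1l, Mrm2 and Mrm3 were not found under those symbols. P-values set the difference between genotypes against the spread between these mice.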

Additional observations from a re-analysis of the deposited data

Results flagged for a closer look

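Within each genotype, the highest or lowest mouse of each of the 77 genes was set against Dixon's critical value for 5 samples (0.710), in 154 groups, of which chance flags about 1 in 20, or 7.7. A mouse stood apart in 13. The widest gaps were those of Mrpl33 in Vil-Cre:NDI1 4, with a normalized count of 278 against 235 to 241 in the rest of its group (gap over range 0.875), of Mrpl2 in Vil-Cre 3, with 1033 against 320 to 411 (0.872), and of Mrpl10 in Vil-Cre:NDI1 1, with 329 against 420.1 to 434 (0.870). Vil-Cre:NDI1 1 was also low for Mrpl11, at 158 against 181 to 186, and high for Mrpl18, at 508 against 374 to 407. Vil-Cre 5 was low for Mrpl15, at 465 against 665 to 708. It was high for Mrpl21, at 279.7 against 199 to 218, and for Mrps17, at 278 against 183 to 202. Vil-Cre:NDI1 5 was high for Mrps17 as well, at 272 against 197 to 219, and low for Mrpl47, at 79.8 against 171 to 208. Vil-Cre 4 was high for Mrpl9, at 760.3 against 519 to 561, and Vil-Cre 2 was low for Mrpl48, at 210.1 against 355 to 392. Vil-Cre:NDI1 4 was low for Mrpl24, at 854 against 1043 to 1107. Genes of 1 mouse share a library, so these groups are not independent of each other.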

How the results depend on the processing

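Among the 77 genes the count called was 0 in every setting but 1, DESeq2 on 8 libraries, where it was 1 (Mrpl2, which then passed at adjusted p = 0.0437); that setting omits Vil-Cre 3 and Vil-Cre 4. The count at an unadjusted p under 0.05 was 6 there (3 higher and 3 lower), 5 with edgeR on those 8 libraries (2 higher and 3 lower), 1 without genes whose exons overlap another gene, and 0 to 3 with 1 mouse left out. For the fits on 8 libraries, with 1 mouse left out or with a replicate block, the share of all genes at that level is not given here. Those counts are thus not set against a background. Over all genes, 2 were called with a minimum of 50, 2 with array weights, 31 by DESeq2 on 10 libraries, 276 by DESeq2 on 8, and 1 to 3 with 1 mouse left out (2 without Vil-Cre:NDI1 1 and 3 without Vil-Cre:NDI1 5). The median log2 fold change of the 77 genes was -0.031 after rescaling to equal totals, with the median of all genes at -0.06, and 0.01 to 0.06 with 1 mouse left out. The causes of these differences were not tested. With the replicate number as a block, 1 gene and 0 of the 77 were called and 3 had an unadjusted p under 0.05. The labels do not say whether the numbers mark a shared litter, and deviations of same-numbered mice correlated at -0.12, 0.00, 0.14, -0.11 and -0.03. NDI1 passed the threshold in every setting, with a log2 fold change of 10.14 to 10.54 with 1 mouse left out. Of 550 values of the 25 named genes under alternatives, 46 changed sign, in 10 genes, none of which had a log2 fold change above 0.10 in size.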
